A study of Mus musculus with 14 samples.

Results

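The 8 libraries of postnatal day 20 (P20) fell into 4 with many and 4 with few transcripts of Mki67, a nuclear protein gene expressed in dividing cells, and these sets are called dividing and resting here. A P20 library was counted as dividing above 100 and as resting below 50 CPM of Mki67 at raw library totals, where CPM is a gene's count scaled to a common library total. The dividing libraries were those labelled WT 1, WT 2, Irx5KO 3 and Irx5KO 4, and the resting ones those labelled Irx5KO 1, Irx5KO 2, WT 3 and WT 4, which makes 8 of the 14 libraries of the series. The Mki67 values that chose the sets were 415, 249, 1368 and 1455 CPM in the dividing libraries and 16.7, 13.7, 9.89 and 3.72 CPM in the resting ones, in that order. The library nearest above the threshold was therefore WT 2 at 249 CPM, and the one nearest below it was Irx5KO 1 at 16.7 CPM.

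Each library held RNA of hair follicle stem cells sorted from mouse back skin as CD34+, Ly-6A/E- cells that were also positive for a marker the labels write as CD45f. The samples of the series are labelled Irx5KO, for a knockout of Irx5, or WT, for wild type, and come from postnatal days 18 and 20, with 3 libraries of each label at P18 and 4 at P20. The strain, the sex, the part of Irx5 removed and whether libraries came from separate animals are not given in the labels, so the p-values below measure the spread between libraries, which may be technical. At P20 the libraries numbered 3 and 4 carry, in their deposited names, the earlier of a pair of date codes and those numbered 1 and 2 the later one, and the name of the P18 library labelled WT 3 holds the word het. What was done on those dates is not given in the sources used here. Each date thus held 2 dividing and 2 resting libraries, with opposite genotype labels: on the earlier date the dividing libraries are labelled Irx5KO, and on the later date they are labelled WT. The comparison sets those labels aside and is made within each date. Because one gene of these same libraries chose the sets, differences between them are described with no test.

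Bulge stem cells are the CD34-bearing cells of the hair follicle that stay quiescent for most of the hair cycle. At the start of a growth phase the hair germ below the bulge divides first, and the bulge cells follow for a short time before they return to rest. BMP signals, FGF18 and the cyclin-dependent kinase inhibitors p21 and p57 are known to keep these cells at rest, while Hedgehog and Wnt signals accompany their activation.

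Irx5, the targeted gene, encodes an Iroquois homeobox transcription factor and lies on chromosome 8 (ENSMUSG00000031737.11, 92357625 to 92376286, plus strand, mm10). It had 104, 100.4, 172 and 160.2 CPM in the dividing libraries and 30.5, 18.9, 32.7 and 36.9 CPM in the resting ones. All 4 dividing libraries were above all 4 resting ones, whatever their genotype label, so Irx5 followed the Mki67 split and went against the labels in the libraries numbered 3 and 4. The difference, dividing minus resting, was 2.22 on the earlier and 2.04 on the later date in mean log2(CPM + 1), with a mean of 2.13 ± 0.17 (SE from the spread of the 2 libraries in each of the 4 combinations of date and set). Its neighbour Irx3 had 82.8 to 113 CPM in the dividing and 93.5 to 114 CPM in the resting libraries. At P18 the Irx5KO labels went with 48.0, 70.6 and 73.3 CPM of Irx5 and the WT labels with 93.8, 109.6 and 132 CPM, scaled over all 14 libraries. If the labels of the libraries numbered 3 and 4 were exchanged, the split between dividing and resting would be the same as that between WT and Irx5KO. This was not tested, and at P20 the readings cannot be told apart. For all libraries below, the genotype is therefore that of the label only.

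Total counts assigned to genes ranged from 13313643 to 40608608 in the dividing libraries and from 16675712 to 38490435 in the resting ones. By the Y-linked gene Ddx3y at raw library totals, the libraries labelled WT 1 (dividing) and Irx5KO 1 (resting) came from females, at 0.123 and 0.338 CPM, and the other 6 from males, at 58.6 to 74.6 CPM, so each set held 1 female and 3 male libraries. Olfactory and vomeronasal receptor genes, which belong to the nose, took 2.37% of the counts in the dividing library labelled WT 2 and 0.102% to 0.605% in the other 7. In bulk RNA a lower level can come from fewer cells of a type or from less RNA per cell, which cannot be told apart.

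Of the 4 genes that mark the split, Mki67 was the one used to make it. At the scaling used from here on it had 413, 245, 1189 and 1336 CPM in the dividing libraries and 18.8, 15.03, 10.3 and 3.69 CPM in the resting ones. Top2a, the topoisomerase that untangles DNA before and during mitosis (chromosome 11, 98992943 to 99024189, minus strand), had 244, 152, 672 and 598 CPM against 9.94, 6.40, 6.51 and 4.58 CPM. Both genes were high in every dividing library, and higher in the pair of the earlier date than in the pair of the later date. Cdkn1c, the gene of p57 (chromosome 7, 143458339 to 143461050, minus strand), had 3.65, 6.61, 4.83 and 4.42 CPM in the dividing and 38.8, 50.4, 29.0 and 42.0 CPM in the resting libraries. Angptl7, a secreted protein gene and bulge marker (chromosome 4, 148495183 to 148500460, minus strand), had 92.4, 176, 59.4 and 42.5 CPM against 497, 1365, 1252 and 427 CPM. Cdkn1c and Angptl7 were lower in every dividing library than in any resting one. The markers were chosen with earlier results of these data known, so nothing is read from their agreement with the names of the sets. On the mean log2(CPM + 1) scale the differences, dividing minus resting, were 5.80 ± 0.38 for Mki67, 5.52 ± 0.25 for Top2a, -2.80 ± 0.24 for Cdkn1c and -3.26 ± 0.59 for Angptl7 (SE).

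**Figure D1:**
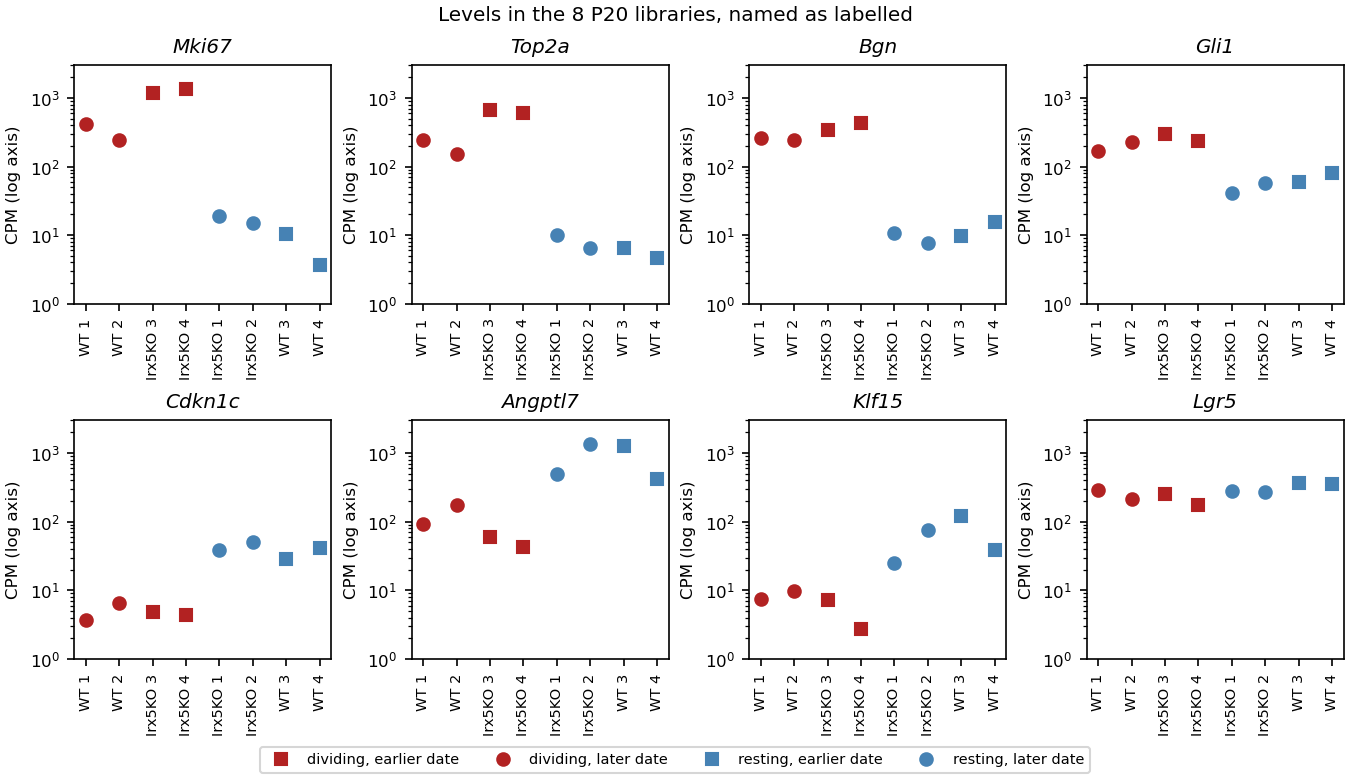
CPM on a log axis in the 8 P20 libraries for 8 genes, 1 point per library, red for dividing and blue for resting, with squares for the earlier and circles for the later date. The dividing libraries lie above all resting ones for Mki67, Top2a, Bgn and Gli1 and below them for Cdkn1c, Angptl7 and Klf15, while the sets overlap for Lgr5, which had 176 to 291 CPM in the dividing and 272 to 369 CPM in the resting libraries.

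Many promoters of mitotic genes carry a CCAAT box, bound by NF-Y, and a CHR element, through which the DREAM and MuvB complexes act, while promoters of replication genes often carry E2F elements. The 250 bases before the annotated start are shown for 7 genes: the division genes Mki67, Top2a, Cenpf and Knl1 and the repair gene Brca1, all far higher in the dividing libraries, and, for contrast, Angptl7 and Klf15, which were far lower. They are RefSeq promoters of GRCm38.p6, written 5′ to 3′ on the strand of the gene. Capitals mark the letters searched on both strands. A CHR was searched as TTTGAA and, in its palindromic form, as TTCGAA, and the NF-Y box as CCAAT. An E2F element was searched as TTGGCGC, in its further forms spelled TTCCCGC, then also as letters TTCGCGC and lastly as letters TTGCCGC. The first bases of the leading E2F form can also end a reversed CCAAT. The promoters lie at chr7:135716380-135716629 (Mki67, minus strand), chr11:99024190-99024439 (Top2a, minus), chr1:189688087-189688336 (Cenpf, minus), chr2:119046869-119047118 (Knl1, plus), chr11:101551956-101552205 (Brca1, minus), chr4:148500463-148500712 (Angptl7, minus) and chr6:90462326-90462575 (Klf15, plus).
Mki67: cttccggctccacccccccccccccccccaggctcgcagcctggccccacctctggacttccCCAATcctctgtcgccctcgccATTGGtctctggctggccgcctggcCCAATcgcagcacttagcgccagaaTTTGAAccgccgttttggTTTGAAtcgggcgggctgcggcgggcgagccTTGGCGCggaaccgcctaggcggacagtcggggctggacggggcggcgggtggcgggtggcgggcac
Top2a: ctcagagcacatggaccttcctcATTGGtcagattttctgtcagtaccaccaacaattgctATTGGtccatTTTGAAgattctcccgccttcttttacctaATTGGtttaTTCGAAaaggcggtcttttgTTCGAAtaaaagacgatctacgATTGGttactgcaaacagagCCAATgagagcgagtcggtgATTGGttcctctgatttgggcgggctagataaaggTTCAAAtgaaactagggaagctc
Cenpf: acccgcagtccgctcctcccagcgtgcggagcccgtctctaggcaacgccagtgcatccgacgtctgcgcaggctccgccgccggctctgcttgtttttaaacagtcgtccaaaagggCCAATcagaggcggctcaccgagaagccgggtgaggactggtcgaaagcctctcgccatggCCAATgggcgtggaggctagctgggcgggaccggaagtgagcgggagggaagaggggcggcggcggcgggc
Knl1: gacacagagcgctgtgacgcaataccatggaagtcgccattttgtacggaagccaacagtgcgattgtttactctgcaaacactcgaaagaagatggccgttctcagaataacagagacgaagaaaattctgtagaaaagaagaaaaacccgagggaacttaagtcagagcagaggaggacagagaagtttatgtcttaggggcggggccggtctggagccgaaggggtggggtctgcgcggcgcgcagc
Brca1: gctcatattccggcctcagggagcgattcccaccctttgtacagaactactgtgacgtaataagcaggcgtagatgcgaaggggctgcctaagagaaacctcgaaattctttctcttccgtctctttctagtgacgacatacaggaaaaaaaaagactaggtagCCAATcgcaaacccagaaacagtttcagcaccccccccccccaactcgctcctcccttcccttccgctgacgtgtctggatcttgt
Angptl7: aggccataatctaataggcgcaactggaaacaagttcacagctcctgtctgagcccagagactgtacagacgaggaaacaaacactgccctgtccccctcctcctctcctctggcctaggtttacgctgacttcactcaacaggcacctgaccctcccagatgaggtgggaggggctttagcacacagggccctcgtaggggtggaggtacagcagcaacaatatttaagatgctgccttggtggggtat
Klf15: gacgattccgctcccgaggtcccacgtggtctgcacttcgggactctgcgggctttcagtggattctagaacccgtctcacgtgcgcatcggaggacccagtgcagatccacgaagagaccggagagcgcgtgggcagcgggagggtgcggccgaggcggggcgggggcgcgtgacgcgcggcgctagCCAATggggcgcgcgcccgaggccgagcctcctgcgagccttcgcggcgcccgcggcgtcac
The Mki67 promoter held 2 CHR, 3 CCAAT and 1 E2F match, and that of Top2a held 4 CHR and 6 CCAAT matches. Cenpf had 2 CCAAT matches and Brca1 had 1, and the Knl1 window had none of these letters. Of the lower genes Angptl7 had none and Klf15 had 1 CCAAT match, so the letters did not divide the windows shown into higher and lower genes. Among all 27025 promoters searched, 17.4% held CHR letters, 34.5% a CCAAT, 7.97% E2F letters and 6.21% both CHR and CCAAT. Among the 7585 promoters of genes with a mean of at least 8 CPM the shares were 11.9% for CHR, 36% for CCAAT and 15% for E2F letters. Both CHR and CCAAT were in 4.76% of these. The genes counted below as higher had 230 promoters, with CHR in 20%, CCAAT in 51.3%, E2F letters in 21.7% and both CHR and CCAAT in 13%. For the 131 promoters of genes counted as lower the shares were 13.7%, 34.4%, 15.3% and 3.05%. These differences in share were not tested. A match is a run of letters and not a binding site.

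The counting rule used below asked that the 4 dividing libraries not overlap the 4 resting ones in CPM and that the mean log2(CPM + 1) differ by at least 1 in the same direction on both dates. By this rule 363 of 20793 genes tested were higher in the dividing libraries (1.75% of all genes) and 180 were lower (0.866%). At raw library totals, where the median of all genes with at least 8 CPM moved from -0.04 to 0.13, the split was 456 higher and 121 lower, and without the library labelled WT 2 there were 381 and 292. Without the fold, 894 genes (4.3%) did not overlap and were higher, and 804 (3.87%) were lower. The 363 higher genes held 1.74% to 3.83% of the counts in the dividing libraries and 0.383% to 0.621% in the resting ones. The 180 lower genes held 1.56% to 1.97% of the counts in the dividing and 3.72% to 5.88% in the resting libraries. Both groups of genes were chosen by these same values, which sets the direction of the shares in advance. Of the 363, 130 belonged to 12 lists of division, replication and repair genes and 43 carried histone symbols, while none of the 180 belonged to those 12 lists. Another 180 of the 363 higher genes were in none of the 45 lists used here and were not histones.

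**Figure D2:**
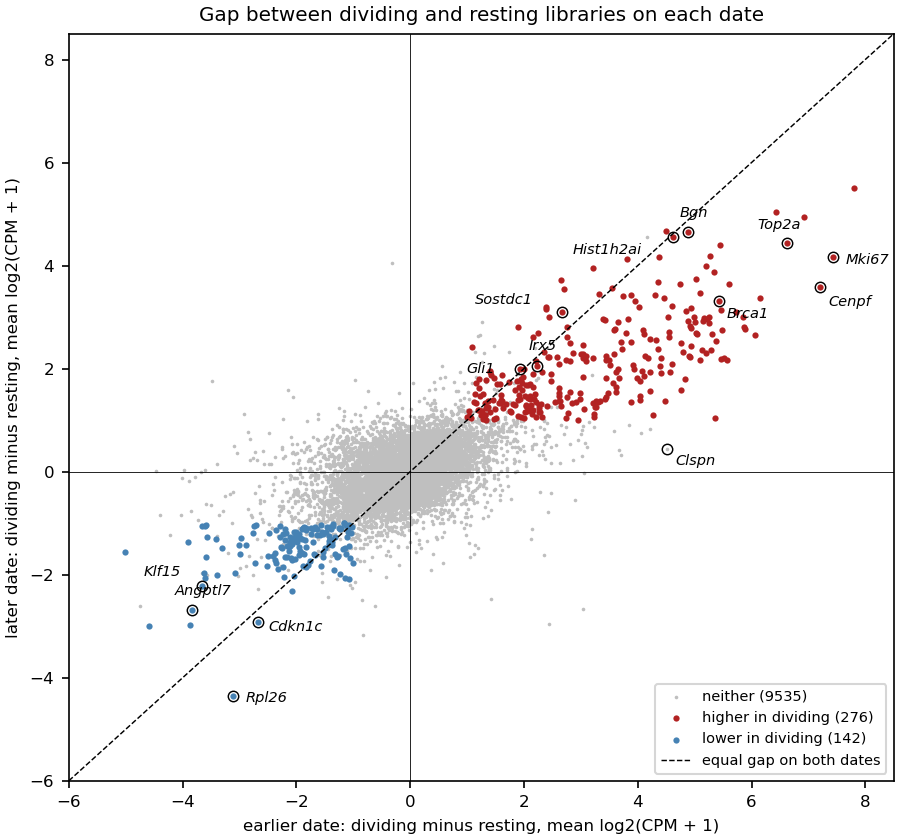
Difference between dividing and resting libraries in mean log2(CPM + 1) on the earlier date (horizontal axis) and on the later date (vertical axis), 1 point per gene among the 9952 genes with a mean of at least 8 CPM. The 276 genes counted as higher (red) mostly lie below the dashed line of equal gaps, as Mki67 does at 7.43 and 4.16, while Bgn at 4.88 and 4.65 and Hist1h2ai at 4.61 and 4.55 lie near it.

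Genes of the mitotic spindle had the highest median difference among the 45 lists. Of 39 spindle, kinesin and cytokinesis genes, 31 were counted as higher and none as lower, with a median of 3.35 log2 units, against 0.02 over all 20793 genes. Tpx2, which seeds spindle microtubules, had 40.3, 37.01, 121 and 171 CPM in the dividing libraries and 6.05, 1.86, 2.78 and 1.85 CPM in the resting ones. Kif23, a kinesin of the dividing cell's midzone, had 29.4 to 176 CPM in the dividing and 0.833 to 5.44 CPM in the resting libraries. Prc1, which bundles midzone microtubules, had 52.6 to 214 CPM and 3.93 to 7.19 CPM. In these genes no dividing library came near any resting one. Of the 36 genes of the list with a promoter in the table, 36.1% held CHR letters and 66.7% a CCAAT.

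Of 23 mitotic cyclins and kinases 17 were counted as higher and none as lower, with a median of 2.86. Ccna2, the cyclin of S and G2 phase, had 24.3, 18.95, 100.4 and 97.9 CPM in the dividing libraries and 1.14, 2.64, 0.458 and 1.07 CPM in the resting ones. Bub1b, a kinase of the spindle checkpoint, had 20.3 to 109 CPM and 0.425 to 2.30 CPM. The resting libraries thus held a small but mostly detectable amount of both. Aurkb, the chromosomal passenger kinase, was at 8.56 to 36.6 CPM in the dividing libraries and at 0 to 0.935 CPM in the resting ones. In this list 15 of 17 promoters (88.2%) held a CCAAT. Of 35 kinetochore and spindle checkpoint genes 19 were higher, with a median of 1.89. Among them was Kntc1, a part of the complex that loads dynein on kinetochores, at 20.1, 22.1, 51.4 and 63.7 CPM against 0.555, 0.435, 0.458 and 0.417 CPM. Its difference was 4.61 ± 0.09, and the 4 resting libraries lay close together. Of 23 condensin, cohesin and topoisomerase genes 7 were higher, with a median of 0.43, and the condensin subunit Ncapg was at 12.8 to 69.5 CPM against 0.357 to 1.87 CPM.

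Genes of DNA replication were higher in part. Of 40 G1/S and replication genes, 19 were counted as higher, with a median of 1.47. Mcm5, a subunit of the replicative helicase, had 47.7, 58.2, 145 and 119 CPM in the dividing libraries and 6.31, 11.2, 3.99 and 3.81 CPM in the resting ones. Uhrf1, which carries DNA methylation through replication, had 73.4 to 197 CPM and 4.45 to 9.53 CPM. The helicase genes Mcm2, Mcm3 and Mcm10 differed by 3.17 ± 0.12, 3.40 ± 0.26 and 3.30 ± 0.29. Pcna and Rrm2, chosen after their values were seen because they are common proliferation markers, overlapped between the sets when the dates were pooled. Pcna, the sliding clamp of the polymerases, had 62.2 to 102 CPM in the dividing and 64.8 to 106 CPM in the resting libraries. Rrm2, a subunit of ribonucleotide reductase, had 29.2 to 69.9 CPM and 13.9 to 42.6 CPM. Of 23 nucleotide synthesis genes 5 were higher, with a median of 0.57, among them Dut, which removes dUTP, at 26.1 to 81.5 CPM against 8.07 to 18.7 CPM. E2F letters were in 38.7% of the 31 promoters of the G1/S list, against 11.7% of the promoters of all genes tested and 15% of those with a mean of at least 8 CPM.

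Of 20 E2F, pocket protein and MuvB regulators 7 were counted as higher. Foxm1, the forkhead factor that drives late cell cycle genes, had 41.9, 31.9, 121 and 167 CPM in the dividing libraries and 8.65, 5.93, 1.80 and 2.499 CPM in the resting ones. Mybl2, which joins MuvB in S phase, had 12.8 to 30.1 CPM and 0.524 to 2.51 CPM. The repressive E2f8 had 17.6 to 43.4 CPM and 2.08 to 7.45 CPM. E2f1, chosen after its values were seen, overlapped when the dates were pooled, with 13.4 to 34.9 CPM in the dividing and 2.86 to 17.4 CPM in the resting libraries.

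Of 17 replication-dependent histone genes in the list, 11 were counted as higher, with a median of 3.24. Hist1h2ai had 309.8, 171, 368 and 504 CPM in the dividing libraries and 7.80, 10.0, 21.2 and 12.97 CPM in the resting ones. Hist1h1b, a linker histone gene, had 52.2 to 171 CPM and 2.36 to 2.98 CPM. Hist1h2ap was detected in 1 of the 4 resting libraries only, at 0.031 CPM in that labelled Irx5KO 2, and had 37.6, 53.8, 235 and 212 CPM in the dividing libraries. Histone genes are near-identical copies among which reads were shared by a model, so values of single copies are uncertain. Histone transcripts mostly lack a poly(A) tail, and whether the RNA was selected by its tail is not given in the sources used here.

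**Figure D3:**
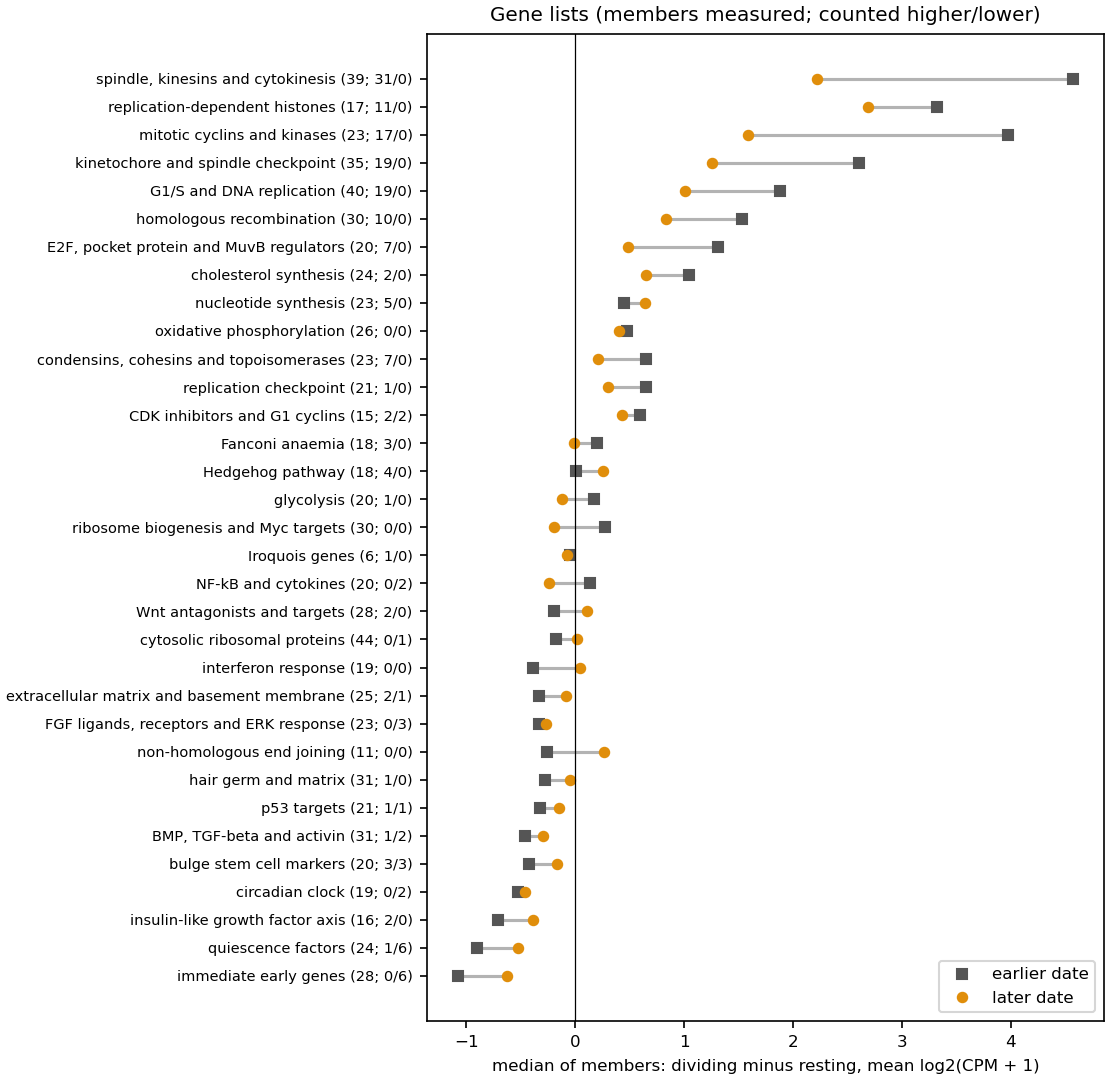
Median difference between dividing and resting libraries, in mean log2(CPM + 1), over the members of each gene list on the earlier date (squares) and on the later date (circles), with the number of members measured and the numbers counted as higher and lower in brackets. The spindle list lies at the top with 4.57 and 2.22, nucleotide synthesis is higher on the later date (0.45 and 0.64), and immediate early genes lie at the bottom with -1.08 and -0.63.

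DNA repair genes were taken by pathway. Of 30 homologous recombination genes 10 were counted as higher and none as lower, with a median of 1.13. Brca1, which brings the recombinase to broken ends, had 26.4, 21.9, 57.9 and 61.5 CPM in the dividing libraries and 1.58, 1.46, 0.622 and 0.238 CPM in the resting ones. Its partner Bard1 had 13.02 to 26.3 CPM and 1.31 to 2.73 CPM. The sets of libraries were far apart for both, with differences of 4.37 ± 0.12 and 2.84 ± 0.17. Of 18 Fanconi anaemia genes, which act on DNA crosslinks, 3 were higher: Fancd2 (3.42 ± 0.19), Fanca (2.44 ± 0.21) and Fanci (2.17 ± 0.27). Of 21 replication checkpoint genes 1 was counted as higher, Timeless, a fork protection gene, at 20.4 to 48.9 CPM against 3.14 to 6.34 CPM. Of 11 genes of non-homologous end joining, the pathway that does not need a sister chromatid, none was counted in either direction, and the median was -0.21 and -0.08 at raw library totals. Its largest difference by size was that of Nhej1, at -0.43 ± 0.09, with gaps of opposite sign on the dates (-1.48 and 0.62).

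Among cell cycle inhibitors and G1 cyclins, 2 of 15 were higher and 2 lower. The higher ones were Ccnd2 and Cdk4, its kinase partner, and the lower ones Cdkn1a and Cdkn1c, where Cdk4 is named after its values were seen. Ccnd2, a D-type cyclin, had 111, 165, 231 and 192 CPM in the dividing libraries and 39.9, 40.6, 36.5 and 76.8 CPM in the resting ones. Cdkn1a, the gene of p21 and also a p53 target, had 196, 115, 56.9 and 90.5 CPM against 425, 404, 356 and 220 CPM. Both genes separated the sets, in opposite directions. Ccnd1 had 44.8 to 178 CPM in the dividing and 26.2 to 80.4 CPM in the resting libraries. These overlapped when pooled, but on each date both dividing libraries were higher than both resting ones, with gaps of 1.39 and 1.01. Of 21 p53 targets 1 was higher and 1 lower, and 6 of 21 differences were positive. The higher one was Gtse1, a microtubule-binding gene of G2 phase, at 4.07 to 20.4 CPM against 0.186 to 0.760 CPM, and the lower one was Cdkn1a.

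Of 24 quiescence factors 6 were lower in the dividing libraries and 1 was higher, with a median of -0.79. Fgf18, a ligand that holds bulge cells at rest, had 3.40, 8.65, 4.77 and 1.61 CPM in the dividing libraries and 26.9, 14.2, 28.2 and 73.0 CPM in the resting ones. Dlk1, a membrane-bound Notch-family protein gene, had 1.31 to 5.22 CPM and 14.7 to 32.6 CPM. With Cdkn1c, Cdkn1a, Klf4 and Txnip, these made up the 6 lower members, and each was lower in all 4 dividing libraries than in any resting one. Klf4, a Kruppel-like factor gene, and Txnip, a thioredoxin inhibitor gene, are named after their values were seen, at 1287 to 2116 CPM against 3839.8 to 6165 CPM and 160.2 to 172 CPM against 224 to 1098 CPM. The single higher member was Sfrp1, a Wnt antagonist gene, at 526, 706, 969 and 911 CPM against 195, 141, 280 and 434 CPM.

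General bulge markers were present in both sets. Of 20 bulge markers 3 were lower and 3 higher, with a median of -0.39, and their summed level was 19983 to 22143 CPM in the dividing and 27185 to 39585 CPM in the resting libraries. Cd34, used in the sort, had 262, 259, 320 and 329 CPM in the dividing and 393, 302, 532 and 904 CPM in the resting libraries, which overlapped when pooled and were separate within each date (gaps of -1.09 and -0.40). Lgr5 and Nfatc1 overlapped as well, with differences of -0.45 ± 0.17 and -0.11 ± 0.20. Krt15, Sox9 and Lhx2, chosen after their values were seen as standard bulge genes, were expressed in all 8 libraries, at 6236 to 16936, 875 to 1697 and 223 to 502 CPM. Those counted were Itgb6, Npnt and Sfrp1 as higher and Postn, Fgf18 and Angptl7 as lower. Itgb6, an integrin subunit that activates TGF-beta, had 147, 135, 212 and 174 CPM in the dividing libraries and 29.8, 28.7, 33.0 and 37.2 CPM in the resting ones. Npnt, a basement membrane protein gene, had 454 to 1014 CPM and 113 to 439 CPM, while Postn, a matricellular protein gene, had 977 to 1725 CPM and 2878 to 5261 CPM.

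Hedgehog target genes were higher in the dividing libraries while no ligand was counted. Of 18 pathway genes 4 were counted as higher and none as lower, with a median of 0.14. Gli1, the transcription factor and target gene of the pathway, had 169, 229, 302 and 237 CPM in the dividing libraries and 41.2, 57.7, 60.4 and 79.2 CPM in the resting ones. Ptch1, the receptor that the pathway induces as its own inhibitor, had 164, 275, 557 and 267 CPM against 52.2, 66.0, 88.7 and 105 CPM. Both were higher in every dividing library than in any resting one. Hhip, a ligand-binding inhibitor that is also induced, was counted as well, at 11.8 to 66.3 CPM against 4.00 to 9.16 CPM. Gli1 differed by about the same amount on both dates (1.94 and 1.99). The coreceptor gene Boc was lower without overlap, at 224 to 430.4 CPM against 432 to 550.1 CPM, and did not reach the fold. None of the 14 promoters of this list in the table held the GLI core letters CCACCCA, which 8.16% of all promoters held.

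Other signalling genes differed singly. Of 28 Wnt antagonists and targets 2 were higher: Sfrp1 and Sostdc1, a secreted antagonist of Wnt and BMP signals. The median of this list was -0.12 (0.02 at raw library totals), and 12 of 28 differences were positive. Lower without overlap were 2 genes, among them Lef1, at 2.24 to 21.6 CPM against 25.7 to 31.4 CPM. The later gap of Lef1 (-0.80) missed the fold. Sostdc1 had 263, 394, 648 and 649 CPM in the dividing libraries and 44.5, 30.2, 56.6 and 178 CPM in the resting ones. Of 31 BMP, TGF-beta and activin genes 1 was higher, Fstl1, a secreted glycoprotein gene, at 70.96 to 145 CPM against 21.9 to 62.1 CPM, and 2 were lower, Nog, a BMP antagonist gene, and Ltbp2. Nog had 10.97, 10.3, 3.72 and 1.40 CPM in the dividing libraries and 32.4, 36.2, 28.9 and 22.9 CPM in the resting ones. Id1, a direct target of BMP signals, had 39.6 to 165 CPM and 157 to 450 CPM. Its pooled values overlapped, but on each date both dividing libraries were lower than both resting ones, by -1.60 on the earlier and -1.62 on the later date. Of 23 FGF and ERK response genes 3 were lower, Fgf18, Spry1 (-1.87 ± 0.35) and Dusp4 (-1.65 ± 0.13), the last a pair of feedback inhibitors of ERK signalling. Of 16 genes of the insulin-like growth factor axis 2 were higher, the binding proteins Igfbp5 and Igfbp4. Igfbp5 had 215 to 533 CPM against 23.3 to 154 CPM, and Igfbp4 405 to 835 CPM against 157 to 289 CPM. The list mostly went the other way, with a median of -0.62 and 5 of 16 differences positive. Lower without overlap were 3 genes, among them Igfbp6, at 0.392 to 17.0 CPM against 23.0 to 101 CPM. Its gap on the later date (-0.83) missed the fold. Edaradd, an adaptor of the EDA receptor in hair placodes, was the 1 gene counted as higher among 31 hair germ and matrix genes (1.67 ± 0.26). The median of that list was -0.25, 13 of 31 differences were positive, and 2 genes, with Lef1 again among them, were lower without overlap.

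Among the 6 Iroquois genes Irx5 alone was counted. Irx1 and Irx2 were lower in the dividing libraries without overlap, by -1.13 ± 0.12 and -0.76 ± 0.17. Irx1 had 100.5 to 123 CPM in the dividing and 217 to 289 CPM in the resting libraries. Irx3 and Irx4 overlapped, at -0.14 ± 0.13 and 0.66 ± 0.24, and Irx3 was at 0.04 when raw library totals were used. Irx4 was higher in both dividing libraries within each date, by 0.86 and 0.45.

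Bgn, the gene of the matrix proteoglycan biglycan, had 258, 247, 344 and 438 CPM in the dividing libraries and 10.7, 7.67, 9.65 and 15.3 CPM in the resting ones. It was the leading higher gene that belongs neither to the division genes nor to the histones, with a difference of 4.77 ± 0.21 that was nearly the same on both dates. Further genes, chosen after their values were seen from the top of the higher genes outside all lists, were Col5a1, a fibrillar collagen gene, at 176 to 643 CPM against 31.4 to 84.4 CPM, and Scd2, a fatty acid desaturase gene, at 80.0 to 235 CPM against 3.79 to 24.3 CPM. The Wnt5a receptor genes Ror1 and Ror2, chosen likewise, differed by 2.18 ± 0.25 and 2.58 ± 0.31. Tnc, the gene of tenascin C, had 402 to 1356 CPM against 185 to 325 CPM. Of 25 matrix and basement membrane genes 2 were higher and 1 lower, with a median of -0.16 that turned to 0.00362 at raw library totals.

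Metabolic genes are given by list, and 1.75% of all genes tested were counted as higher. Of 24 cholesterol synthesis genes 22 differences were positive, 8 genes did not overlap and 2 were counted as higher. One of these was Mvd, an enzyme gene of the mevalonate pathway, which had 9.57, 7.59, 10.4 and 3.69 CPM in the dividing libraries and 3.65, 0.497, 1.64 and 2.62 CPM in the resting ones. The sets lay close together in this gene, with the highest resting value just under the lowest dividing one. Of 26 oxidative phosphorylation genes 24 were positive and 10 did not overlap, but none was counted, and the median was 0.43. Cox6c, a subunit of the last respiratory complex, had 50.4 to 75.3 CPM and 31.7 to 34.2 CPM. Of 20 glycolysis genes 1 was counted, Eno1, at 114 to 263 CPM against 32.7 to 68.0 CPM. Of 30 ribosome biogenesis and Myc target genes none was counted, and Myc itself had 234 to 645 CPM in the dividing and 472 to 1137 CPM in the resting libraries. Within each date Myc was lower in both dividing libraries, with gaps of -1.15 and -1.10, while the pooled ranges overlapped.

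Of the 180 genes lower in the dividing libraries, 155 were in none of the lists. Klf15, a Kruppel-like factor gene that responds to glucocorticoids and the clock, had 7.39, 9.67, 7.12 and 2.70 CPM in the dividing libraries and 24.7, 74.5, 122 and 38.2 CPM in the resting ones. Pkd1, which encodes polycystin 1, had 80.3 to 173 CPM and 363 to 777 CPM. Mmp2, a matrix metalloproteinase gene, had 40.6 to 99.6 CPM and 263 to 380 CPM. For each of these the sets lay well apart. Kcnma1, a potassium channel gene, was at 17.2, 48.5, 19.6 and 16.9 CPM against 151, 99.0, 99.7 and 78.4 CPM. Sncg, the gene of gamma-synuclein, had 0.156 to 16.5 CPM and 27.0 to 152 CPM, and Hmox1, the inducible heme oxygenase, 7.12 to 12.97 CPM and 28.7 to 55.1 CPM. Rpl26 was listed with the largest smaller-of-both-dates difference among the lower genes, with 22.4 to 27.2 CPM against 536, 571, 87.5 and 542 CPM, but it has annotated pseudogenes with which kallisto's model can divide reads, so its value is uncertain. Further genes of the leading 15 were Fam71a, Rnf227, Tmem184a, Rasl11a and the phosphatase gene Ptpru, with differences of -3.42, -2.20, -2.70, -2.80 and -2.52.

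Of 19 circadian clock genes 2 were lower and 18 differences were negative, with a median of -0.45. Tef and Dbp, both clock output factors of the PAR-bZIP family, had 27.7 to 62.7 CPM against 103 to 203 CPM and 2.44 to 10.3 CPM against 11.8 to 48.5 CPM. The core genes Clock, Arntl and Per2 overlapped, at -0.05, -0.45 and -0.23, chosen after their values were seen. The hour at which the mice were taken is not given in the sources used here.

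Immediate early and heat shock genes, which respond to the handling of cells as well as to signals, were mostly lower in the dividing libraries. Of 28 such genes none had a positive mean difference (2 at raw library totals), 12 did not overlap and 6 were counted as lower, with a median of -0.83: Klf4, Maff, Socs3, Hspa1a, Hspa1b and, named after its values were seen, the phosphatase gene Dusp1. Their summed level was 22660 to 31986 CPM in the dividing and 45726 to 64082 CPM in the resting libraries. Hspa1b, an inducible HSP70 gene, had 896, 841, 1929 and 646 CPM against 2668, 3084, 4598 and 4842 CPM. Socs3, a feedback inhibitor of cytokine signals, had 308, 508, 343 and 541 CPM against 1138, 1445, 1490 and 2065 CPM. The sets did not overlap in either gene. Of 20 NF-kB and cytokine genes 2 were lower, the chemokine genes Ccl2 (-1.59) and Ccl7 (-1.87), and of 19 interferon response genes none was counted. Both chemokine genes were at low levels. Ccl2 had 1.72 to 3.48 CPM against 5.95 to 12.7 CPM, and Ccl7 0 to 0.594 CPM against 2.72 to 4.58 CPM. Fos, also picked with its values known, ranged from 1788 to 4606 CPM and from 3511 to 8027 CPM, which overlapped when pooled, and was lower in both dividing libraries on each date (gaps of -1.15 and -0.96). The cells had been released from skin with trypsin before sorting, per the labels, and the part of such handling in the differences between the sets was not tested.

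Markers of other cell types were checked in the same way. Among markers of the companion layer and outer root sheath, 2 of 8 were counted as lower, Krt6a and Krt75, and their sum was 2731 to 4524 CPM in the dividing and 3942 to 6235 CPM in the resting libraries. Krt6a, a keratin of the inner bulge layer and companion layer, had 694, 503, 91.2 and 248 CPM in the dividing libraries and 1854, 1475, 2102 and 1079 CPM in the resting ones. Suprabasal and cornified epidermis markers summed to 1836 to 3985 CPM and 977 to 12286 CPM, with none of 15 counted. Fibroblast markers summed to 211 to 351 CPM and 127 to 364 CPM, endothelial and pericyte markers to 331 to 546 CPM and 346 to 696 CPM, and none of either list was counted. Melanocyte markers summed to 72.7 to 132 CPM in the dividing and 191 to 251 CPM in the resting libraries. Most of this sum was 1 gene, the melanocyte master factor Mitf, at 61.4 to 112 CPM against 173 to 244 CPM. Mitf did not reach the fold on both dates, Dct was counted as higher (1.20 ± 0.25), and 6 of the 10 markers had a mean below 1 CPM. Lymphoid markers summed to 10.0 to 62.8 CPM and 10.2 to 45.6 CPM, and those of Langerhans cells, macrophages and mast cells to 241 to 475 CPM and 252 to 680 CPM. In the list of muscle, nerve and erythroid markers, which summed to 2.02 to 43.2 CPM and 7.26 to 15.1 CPM, Hbb-bt was at 0 in all 8 libraries. In the hair shaft and inner root sheath list 14 of the 19 genes found in the annotation had a mean below 1 CPM, and Tchh was the 1 counted, as lower (-1.32 ± 0.22). Infundibulum markers summed to 2265 to 3176 CPM and 2165 to 3273 CPM and sebaceous gland markers to 407 to 628 CPM and 221 to 861 CPM, with none counted. Of 7 basal epidermis markers 1 was counted, Sostdc1, as higher. Whether these cell types have a part in the differences above was not tested.

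The 6 libraries of P18, which took no part in the rule, gave levels of the same genes at the earlier age. Age and date cannot be told apart there, since each age had its own dates. Scaled over all 14 libraries, Mki67 had 14.1 to 36.5 CPM at P18, overlapping the resting P20 libraries at 3.75 to 18.5 CPM and below the dividing ones at 228 to 1418 CPM. Of the 363 genes higher in the dividing libraries, 171 had all 6 P18 libraries below the lowest dividing one, and of the 180 lower genes, 88 had all 6 above the highest dividing one. Over all 20793 genes these shares were 5.25% and 5.38%, but the 363 and 180 genes were chosen by their dividing values, which partly sets both counts, so nothing is read from them. The P18 mean lay within the range of the resting libraries for 105 of the 363 and 67 of the 180. Several genes had P18 levels between the sets without overlap with either. Cdkn1c had 9.77 to 19.6 CPM at P18, against 29.5 to 48.4 CPM in the resting and 3.79 to 6.16 CPM in the dividing libraries. Klf15 had 10.8 to 16.0 CPM, against 24.3 to 124 CPM and 2.87 to 9.003 CPM. Itgb6 had 45.6 to 64.4 CPM, against 27.6 to 37.8 CPM in the resting and 126 to 224 CPM in the dividing libraries. Gli1, at 31.0 to 68.0 CPM, and Bgn, at 11.8 to 28.2 CPM, overlapped the resting range at P18. Irx5 had 48.0 to 132 CPM at P18, above all 4 resting libraries and overlapping the dividing ones.

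**Figure D4:**
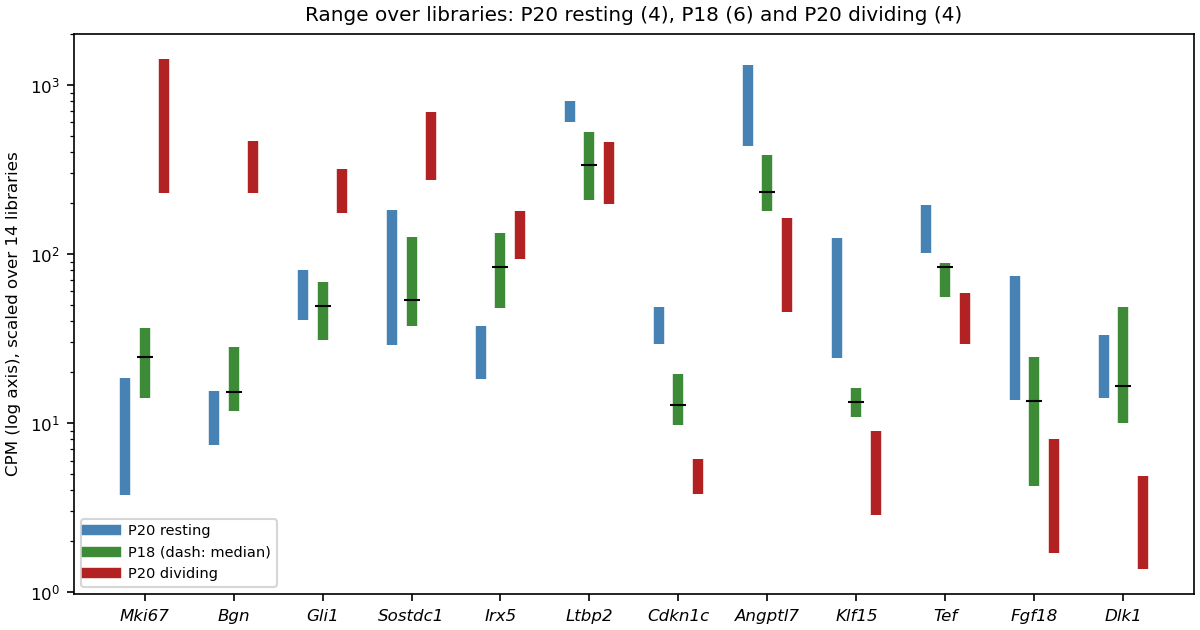
Range of CPM over the libraries, on a log axis, for 12 genes in the 4 resting P20 (blue), 6 P18 (green, dash at the median) and 4 dividing P20 libraries (red), scaled over all 14 libraries. The P18 range of Cdkn1c, Angptl7 and Klf15 lies between both P20 sets, while that of Gli1 and Bgn overlaps the resting set.

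The size of the gap between dividing and resting libraries could be compared between the dates, a question the rule did not use. In this balanced layout the gap on the earlier date minus that on the later date, divided by 2, equals the difference between labelled Irx5KO and labelled WT averaged over both dates, so the 2 readings cannot be told apart. edgeR's quasi-likelihood test with Benjamini-Hochberg adjustment over 20793 genes called 20 genes (0.0962% of genes), 14 with a positive difference (0.0673%) and 6 with a negative one (0.0289%). Of 300 division, replication and repair genes in the 12 lists, each counted once, 8 passed, all with the larger gap on the earlier date. Among the genes counted by the fold rule, the gap was larger on the earlier date for 301 of the 363 higher genes (median 2.69 against 1.73) and for 146 of the 180 lower ones (median -1.97 against -1.37). These medians describe genes chosen by both gaps and have no test.

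The 6 named genes that passed in the positive direction act in replication and mitosis. Clspn encodes claspin, an adaptor of the replication checkpoint, and differed most among them, by 2.28 ± 0.22 (log2, SE; edgeR adjusted p = 0.0083). It had 66.9 and 87.1 CPM in the dividing and 2.62 and 2.14 CPM in the resting libraries of the earlier date, but 42.2 and 37.4 against 24.0 and 34.8 CPM on the later date. On the later date the gap was thus 0.45, against 4.52 on the earlier one, and the resting libraries of the later date held more Clspn than those of the earlier date. Knl1, the kinetochore scaffold gene, had 98.2 and 100.2 against 1.37 and 1.19 CPM on the earlier date and 24.3 and 21.1 against 4.30 and 4.16 CPM on the later one (1.92 ± 0.21, edgeR adjusted p = 0.0088). Foxm1 (1.87 ± 0.22, edgeR adjusted p = 0.018) and Aspm, a spindle pole gene (1.98 ± 0.25, edgeR adjusted p = 0.023), also passed. So did Cenpf, a kinetochore protein gene (2.17 ± 0.28, edgeR adjusted p = 0.035), and Cit, the citron kinase gene of cytokinesis (1.89 ± 0.28, edgeR adjusted p = 0.045). The other 8 genes with a positive difference, named after their values were seen, were Prc1, Cdca8, Arhgap11a, Iqgap3, Jpt1, the fibronectin gene Fn1 and 2 pseudogenes. In all 6 named first, the dividing libraries of the earlier date were higher than those of the later date, and the resting ones lower. Mki67, at 1.60 ± 0.31 (edgeR adjusted p = 0.18), and Brca1, at 1.52 ± 0.30 (edgeR adjusted p = 0.12), did not pass.

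The negative differences that passed belong to gene models that may share reads with others. They are a second annotated model of Hgs (-2.85 ± 0.39, edgeR adjusted p = 0.037) and both Ccl27 copies on unplaced scaffolds (-1.35 ± 0.20 and -1.32 ± 0.20, edgeR adjusted p = 0.043 and 0.048), with the remaining 3 on provisional models or pseudogenes. The second Hgs model overlaps the main one on chromosome 11, from 120467635 to 120483984, so its values are uncertain. Irx5 and Gli1 had adjusted p-values of 0.97 and 0.9999 in edgeR, which does not show that their gaps are equal. The call of all 6 named division genes was lost without the dividing library labelled WT 2 (edgeR adjusted p = 0.055 to 0.16) and in limma voom (adjusted p = 0.14 to 0.54), with values of 1.76 to 2.22 and 1.87 to 2.26. The number of genes called was 20 in all, 0 in edgeR without WT 2 (1573 at an unadjusted p under 0.05), 0 in voom (1361) and 350 in DESeq2. Leaving out any other 1 of the 8 libraries gave 80 (Irx5KO 4), 165 (Irx5KO 3), 239 (WT 1), 280 (Irx5KO 1), 308 (Irx5KO 2), 312 (WT 4) and 365 (WT 3), with more genes tested each time.

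**Figure D5:**
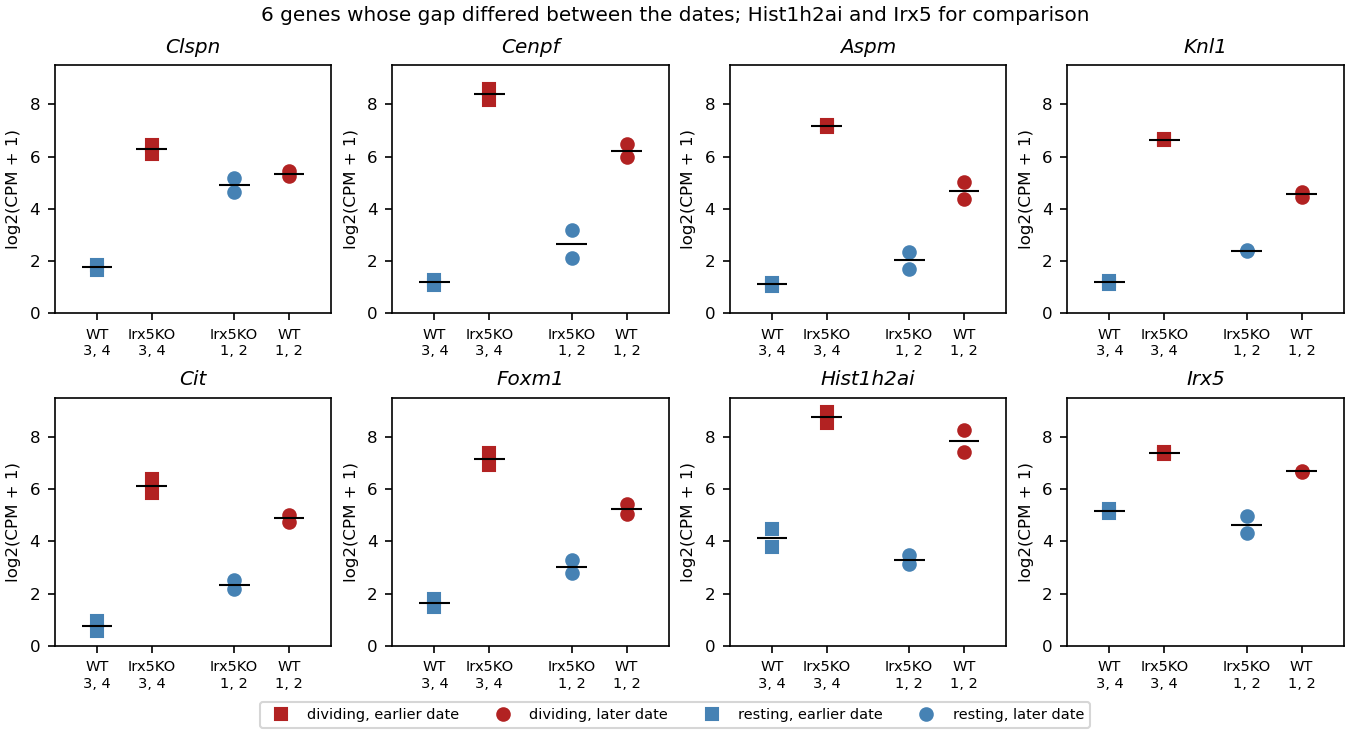
log2(CPM + 1) of each P20 library for 6 genes whose gap differed between the dates and for Hist1h2ai and Irx5, with squares for the earlier and circles for the later date, red for dividing and blue for resting libraries and black bars for the mean of 2 libraries. The gap is smaller on the later date in the 6 genes, as in Clspn from 4.52 to 0.45, and in Hist1h2ai (4.61 and 4.55) and Irx5 (2.22 and 2.04) both gaps are alike in size.

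Between the dates themselves, averaged over dividing and resting libraries, edgeR called 2929 genes (14.1%), 2457 as higher on the later date (11.8%) and 472 as lower (2.27%). At other scalings the split was 1966 higher and 1263 lower (TMM over all genes) and 2062 and 835 (raw library totals), and without the library labelled WT 2 the total was 1886. By Ddx3y both female libraries, those labelled WT 1 and Irx5KO 1, were of the later date, and all libraries of the earlier date were male. The part of sex in these calls was not tested. The higher ones were 1390 of 10841 genes with a mean below 8 CPM (12.8%) and 1067 of 9952 genes at or above it (10.7%). Counted across both of these classes, 348 of 912 olfactory and vomeronasal receptor genes were among the higher ones (38.2%). Hes1, a Notch target gene, differed most among lower genes of at least 8 CPM, by -3.26 (edgeR adjusted p = 6.3e-05). It had 108 and 165 CPM in the dividing and 263 and 245 CPM in the resting libraries of the earlier date, and 11.9 and 15.8 against 30.4 and 24.3 CPM on the later date. Within each date the dividing libraries were thus lower, by -0.92 and -0.94, although the 8 values pooled overlapped. Of the 17 histone genes 8 were lower on the later date, among them Hist1h4d (-1.89, edgeR adjusted p = 0.0018), and Hist1h4d was higher in the dividing libraries on both dates (1.30 and 2.31). The genes with the largest rises on the later date, Lrrc7, Tshb, Olfr1278, Vmn1r77 and Vmn1r233, had 46.9 to 59.2 CPM in the library labelled WT 2 and at most 13.1 CPM in any other.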

How the data were processed

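Sorted hair follicle stem cells of P18 and P20 mice were sequenced as single-end reads, and the authors quantified them with kallisto 0.46.2 per the labels' protocols, while DESeq2 and mm10 are named in the submitters' processing notes. The deposited estimated counts per transcript are expected counts, which were summed per gene and rounded to whole numbers; the deposited TPM values served in 1 alternative. Transcripts with no gene in the annotation held 1.19% to 2.59% of the counts and were left out. CPM were counts scaled to a common total by library totals multiplied by TMM factors from genes with a mean of at least 8 CPM. Of 31397 genes with any count, 20793 passed edgeR's filterByExpr.

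The members, gene lists (45 lists, 900 of 903 symbols matched) and tests were chosen with earlier results of these data known. Dividing and resting libraries were compared by mean log2(CPM + 1) within each date, with the standard error from the pooled spread of the 2 libraries per date and set, and without a test. Labelled genotype and date were tested over the 8 P20 libraries with edgeR's quasi-likelihood test (edgeR 4.0.16, R 4.3.3), with 1 coefficient per date and label and Benjamini-Hochberg adjustment over all genes tested. Its standard errors were taken from the fold change and the F statistic. Genes named were the markers, the 15 leading in each direction by the smaller of both dates' differences, the 6 largest rises and falls of each test, all of at least 8 CPM, and up to 5 per list; provisional models and pseudogenes were counted but not named. Alternatives used other scalings, filters, folds and pseudocounts, DESeq2 1.42.0, limma 3.58.1 and each library left out in turn. RefSeq promoters of GRCm38.p6 were searched for motif letters in the 250 bases before the start. Counts measure sequencing depth only, and reads of near-identical genes were divided by kallisto's model. Values of some genes are not reported here.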

Additional observations from a re-analysis of the deposited data

Results flagged for a closer look

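Among the 4 libraries of a set, 1 library stood far from the other 3 in 13 of the 124 groups looked at (62 named genes, each in both sets). The cut used is passed by about 1 in 20 groups of unselected, normally spread values. These genes were chosen by values of the same libraries, so the count cannot be set against that rate. The groups share libraries and are not independent. In the resting set, Nfatc1 had 814.9 CPM in the library labelled WT 4 against 485 to 537 CPM in the others, and Hist1h4k had 10.65 CPM there against 0.935 to 2.32 CPM. Rpl26 had 87.51 CPM in the resting library labelled WT 3 against 536 to 571 CPM, and Mmp2 had 379.9 CPM there against 263 to 281 CPM. Fam71a had 186.1 CPM in the resting library labelled Irx5KO 2 against 62.2 to 78.7 CPM, and Hist1h2ap had 0.03106 CPM there against 0 in the other 3. In the dividing set, Kcnma1 had 48.46 CPM in the library labelled WT 2 against 16.9 to 19.6 CPM. Prss22 had 31.74 CPM in the dividing library labelled Irx5KO 3 against 4.26 to 8.39 CPM. The same library labelled WT 2 stood apart for Lrrc7 (46.89 CPM), Tshb (47.1 CPM), Olfr1278 (59.23 CPM), Vmn1r77 (46.93 CPM) and Vmn1r233 (47.74 CPM), which had at most 6.80 CPM in the other dividing libraries.

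The gap between dividing and resting libraries differed between the dates by edgeR's test for 9 named gene models, given as the earlier minus the later gap divided by 2. In log2 units the values were 2.284 for Clspn, 2.168 for Cenpf, 1.978 for Aspm, 1.919 for Knl1, 1.89 for Cit and 1.868 for Foxm1, and -2.855 for the second Hgs model and -1.351 and -1.325 for the Ccl27 copies. In this layout the same values are the difference between the genotype labels, and the readings cannot be told apart.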

How the results depend on the processing

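The count of genes whose gap differed between the dates (20) depended on nearly every choice. It was 12 with TMM over all genes, 10 with RLE size factors, 373 without an expression filter, 3 with a filter of 1 CPM in 3 libraries, 350 in DESeq2, 0 in limma voom (1361 genes at an unadjusted p under 0.05), 79 with all 14 libraries fitted and 0 in edgeR with no term for the split (535). Without 1 library it ranged from 0 (without WT 2, 1573 at an unadjusted p under 0.05) to 365, where 21918 to 25589 genes were tested in place of 20793; the lone library of a date and label was then assumed to vary like the others. With the replicate block it was 92. Replicate numbers are shared by labels, but deviations within dates correlated by only 0.199 and 0.0213, and 2 of 4 numbers matched best with themselves, and libraries numbered 1 were female under both labels, so whether the numbers pair animals is not known. For dates (2929 genes) no filter gave 4521, DESeq2 5665 and no term for the split 757, and leaving out 1 library gave 1886 (without WT 2) to 4233. The counts of 363 higher and 180 lower genes became 665 and 518 at a fold of 0.5 log2 and 138 and 14 at 2, and 261 and 95 when every pair within the replicate block had to reach the fold. Without 1 library they ranged from 351 to 483 and from 171 to 292 (without WT 2). The cause of these changes was not tested, beyond the number of genes tested. No named value that was counted or tested changed sign; of those not counted, Irx3 went from -0.14 to 0.04 and Nfatc1 from -0.11 to 0.07 at raw library totals, and Nfatc1 to 0.07 without WT 4. Of the named tested values 316 kept and 50 lost their side of the threshold over the alternatives.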
